A study of Mus musculus with 6 samples.

Results

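Complex I (NADH dehydrogenase) genes of the nuclear genome were followed in whole mouse hearts with and without an intact Tfam gene in the cardiac lineage. Members were all genes whose symbol starts with Nduf, which gave 42 of the 23284 genes listed in each library. Of these, 36 encode subunits, 4 (Ndufaf1 to Ndufaf4) encode assembly factors, and Ndufa4 and Ndufa4l2 form a family of their own. Tfam codes for a protein (mitochondrial transcription factor A) that coats mitochondrial DNA and that transcription and replication of this DNA require. Poly(A) RNA of C57BL/6 embryos was sequenced at stage E13.5 in 3 Tfam KO libraries (Tfam fl/fl with Nkx2.5 IRES-Cre/+) and 3 Control libraries (Tfam fl/+ with the same Cre allele), with 5 hearts pooled for every library. The Control hearts thus also carried Cre and 1 floxed Tfam allele. The Nkx2.5 locus drives Cre in the cardiac lineage, so cells outside that lineage in these whole hearts keep an intact Tfam gene.

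Complex I takes electrons from NADH, passes them along iron-sulfur clusters to ubiquinone and pumps protons across the inner mitochondrial membrane. The N module binds NADH and the Q module binds ubiquinone, and both lie in the matrix arm. The membrane arm is built around subunits encoded by mitochondrial DNA, so the complex needs products of both genomes. Core subunits carry out the reaction, accessory subunits surround them, and assembly factors help to build the complex and are absent from the finished enzyme. The heart depends on this enzyme for much of its ATP after birth. The subunits that mitochondrial DNA encodes were not analysed here.

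Library totals ran from 12370092 to 18078620 reads, of which 14.95% to 32.5% fell on the ribosomal RNA precursor Rn45s. The libraries differed in overall scale. Over all 10807 genes tested, the log2 fold change (KO minus Control) had a median of 0.28 on the deposited scale and of 0.01 once size factors (0.828 to 1.33) had been divided out. Each result is therefore given on both scales, values divided by size factors are called scaled FPKM (fits on them are given as after scaling), and rose or fell is used only of genes past an adjusted p of 0.05 on both. Tfam itself was at 3.97, 4.77 and 6.22 FPKM in KO and at 4.64, 5.55 and 6.62 FPKM in Control. The groups overlapped on the deposited scale and were separate, with KO lower, in scaled FPKM, where the log2 fold change was -0.42 (adjusted p = 0.152, limma). With a correction for transcript GC content it was -0.49 (adjusted p = 0.0283), a call lower. The count covers the whole gene, and the deleted exons are not given in the sources used here, so this is a weak check of the genotype. The 10 markers of heart muscle averaged 21.9 to 5734 FPKM over the 6 libraries. Of them, 7 had a log2 fold change below 0 on the deposited scale and 8 after scaling. Actc1 had a mean of 4235 FPKM in Control and 4500 FPKM in KO. Its log2 fold change was 0.09 on the deposited scale and -0.24 after scaling.

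No subunit gene of complex I passed the test on either scale, while the assembly factors held both the member with the highest fold change and a related gene that fell. Of 41 members tested, Ndufaf4 alone was called higher on the deposited scale, where 6.21% of all genes were called higher. None was called lower there, against 1.16% of all genes. After scaling 0 members were called in either direction, against 2.07% of all genes higher and 2.5% lower. Where p was left unadjusted (threshold 0.05), limma gave 10 higher and 0 lower members on the deposited scale and 1 higher and 2 lower after scaling, and the shares over all genes were 23.3% higher and 2.53% lower on the deposited scale and 8.87% higher and 10.4% lower after scaling. limma-voom on recovered reads called 0 members, against 2.78% of all genes higher and 4.03% lower, and at an unadjusted p under 0.05 it put 1 member higher (9.46% of all genes) and 2 lower (11.3%). The deposited count rested on single libraries, since 6 members were called higher without Tfam KO replicate 2, where the share of all genes called higher was 21%, and 0 were called higher when any 1 of the other 5 libraries was left out.

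Subunit genes were expressed at levels from 6.15 FPKM (Ndufa11) to 200.5 FPKM (Ndufa12) on average over the 6 libraries, with a median of 59.7 FPKM. All 35 tested subunits had fold changes above 0 on the deposited scale, with a median log2 fold change of 0.31 against 0.28 for all genes. After scaling 17 were above 0 and 18 below, and their median was -0.01 against 0.01 for all genes. In all, subunit reads made up 0.16% to 0.239% of a library's total. The KO and Control values of 16 subunits did not overlap on the deposited scale, all with KO higher, where 25.6% of all genes were separate in that direction and 2.34% in the other. In scaled FPKM 0 subunits were separate with KO higher and 3, Ndufc2 and Ndufb7 among them, were separate with KO lower, against 12.5% and 11.6% of all genes. Standard errors of the subunits' log2 fold changes after scaling ran from 0.115 to 0.21, which sets the size of difference these libraries could resolve.

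**Figure D1:**
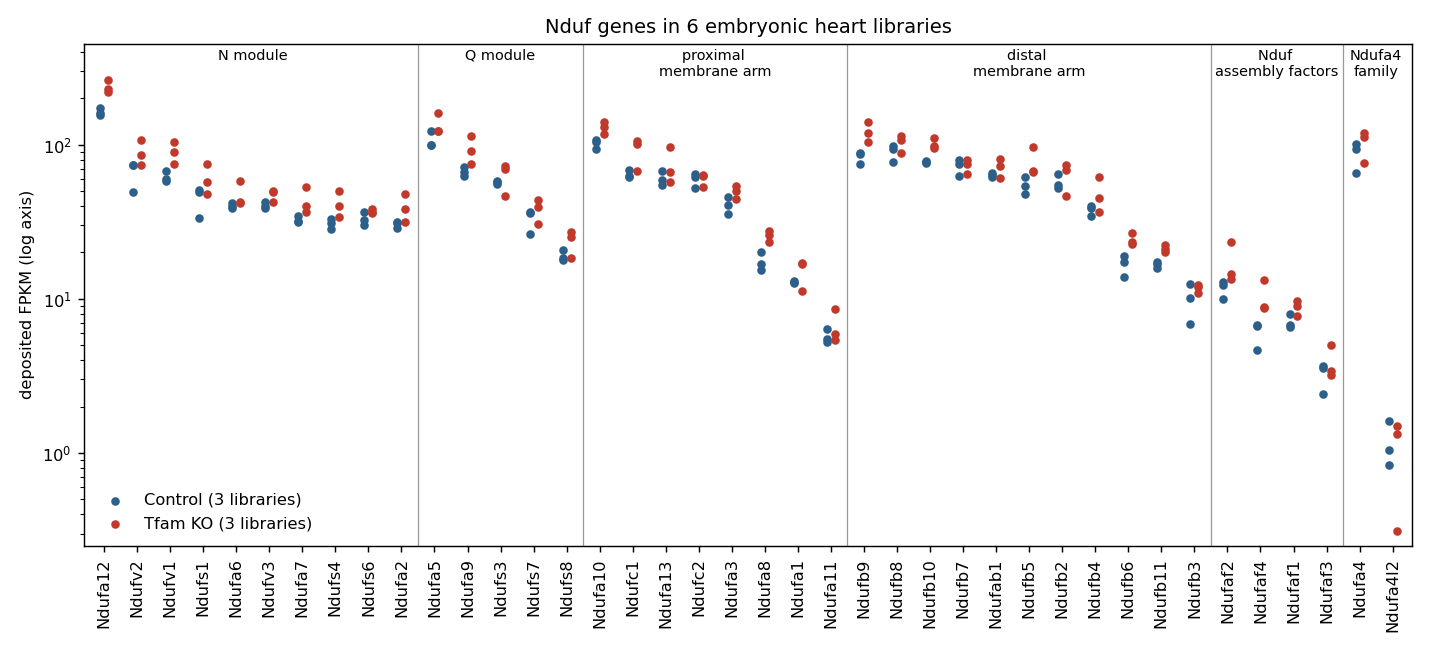
Deposited FPKM of 40 of the 41 tested Nduf genes in each library (log axis), ordered by module and level, with Control libraries in blue and Tfam KO libraries in red. Ndufa12 stood highest, the 4 Nduf assembly factors lay below most subunits, and Ndufa4l2 lay near 1 FPKM.

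Among the modules, the N module, where NADH is oxidised, had the highest median log2 fold change over its 10 genes. It was 0.39 on the deposited scale and 0.07 after scaling. With GC correction its median was 0.03, close to the 0.02 of the proximal membrane arm. The Q module was then at -0.02 and the distal membrane arm at -0.03. Of the 10 N-module genes, 8 had separate groups on the deposited scale, with KO higher (25.6% of all genes). In scaled FPKM 0 were separate (12.5% of all genes with KO higher and 11.6% with KO lower). Ndufa12, an accessory subunit that takes its place late in assembly, was the most abundant member at 264, 231 and 221 FPKM in KO and 161, 172 and 155 FPKM in Control. The groups did not overlap on the deposited scale. In scaled FPKM the values were 225, 250 and 166 in KO and 194, 198 and 153 in Control, and KO replicate 3 lay among the Control libraries. Its log2 fold change was 0.55 ± 0.22 (SE; adjusted p = 0.0999, limma) on the deposited scale and 0.22 ± 0.17 (adjusted p = 0.547) after scaling. Ndufa12 alone made up 10.9%, 11.1% and 8.51% of the summed subunit FPKM in KO and 8.89%, 9.09% and 8.12% in the Control libraries, so its share in KO replicate 3 lay within the Control range.

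The core subunits of the N module were Ndufv1, which carries the flavin that accepts electrons from NADH, and Ndufv2 and Ndufs1, which carry iron-sulfur clusters. Ndufv1 was at 103.5, 75.1 and 89.7 FPKM in KO and 59.8, 58.5 and 67.6 FPKM in Control. Ndufv2 was at 85.6, 74.2 and 107 FPKM in KO and 49.4, 73.9 and 73.99 FPKM in Control. Both genes had every KO library above every Control library on the deposited scale, by a wide margin for Ndufv1 and a narrow one for Ndufv2. Ndufs1 was at 57.6, 47.5 and 75.3 FPKM in KO and 33.3, 50.5 and 49.1 FPKM in Control, with KO replicate 2 below a pair of Control libraries. After scaling the 3 log2 fold changes were 0.19, 0.12 and 0.11, none past the threshold (adjusted p from 0.476 to 0.739, limma). The other N-module genes, the accessory subunits Ndufv3, Ndufs4, Ndufs6, Ndufa2, Ndufa6 and Ndufa7, ran from -0.16 to 0.09 after scaling. Ndufs4, whose loss in mice gives a widely used model of complex I disease, was at 0.41 on the deposited scale (adjusted p = 0.233, limma) and 0.09 after scaling (adjusted p = 0.747).

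The Q module, which passes electrons to ubiquinone, had a median log2 fold change of 0.24 on the deposited scale and -0.08 after scaling over 6 genes. Ndufs3, a core subunit without an iron-sulfur cluster, was at 72.3, 46.7 and 69.2 FPKM in KO and 55.8, 58 and 57.3 FPKM in Control. KO replicate 2 lay below and the other KO libraries above all Control libraries. Its log2 fold change was 0.11 on the deposited scale and -0.21 after scaling, neither past the threshold.

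Ndufs7 and Ndufs8 carry the last iron-sulfur clusters of the chain. Ndufs7 was at 43.9, 30.8 and 39.2 FPKM in KO and at 36, 26.3 and 36.4 FPKM in Control, and Ndufs8 was at 27.2, 18.5 and 25.1 FPKM in KO and 18.4, 17.96 and 20.8 FPKM in Control. In both genes the groups overlapped, with KO replicate 2 the lowest KO library. The accessory subunit Ndufa5 was the next most abundant member after Ndufa12, at 122, 122 and 160 FPKM in KO and 99.4, 123 and 99.4 FPKM in Control. These groups overlapped too, and its log2 fold change after scaling was 0.00 ± 0.16 (SE). Ndufa9, an accessory subunit at the junction of the arms, had separate groups on the deposited scale (log2 fold change 0.46, adjusted p = 0.179, limma) and overlapping ones in scaled FPKM (0.14, adjusted p = 0.607).

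The membrane arm was divided into a proximal part, with 8 of 9 genes tested, and a distal part, with 11 tested. In log2 fold change their medians were 0.27 and 0.31 on the deposited scale and -0.05 and -0.01 after scaling. Ndufa10, the most abundant gene of the proximal part, was at 129.8, 117 and 139 FPKM in KO and 93.2, 107 and 104 FPKM in Control. The groups were separate on the deposited scale, with KO higher, and overlapped in scaled FPKM (log2 fold change 0.01 ± 0.13, SE). Ndufa8, which lies on the intermembrane side, was at 27.4, 23.5 and 26 FPKM in KO and 16.9, 15.4 and 20.1 FPKM in Control. The groups were separate on the deposited scale (log2 fold change 0.53, adjusted p = 0.126, limma) and overlapped in scaled FPKM (0.22, adjusted p = 0.391). Ndufb9, of the distal part, was at 118, 105 and 139.9 FPKM in KO and 88, 74.9 and 86.9 FPKM in Control. It too was separate on the deposited scale and overlapped after scaling, with log2 fold changes of 0.53 (adjusted p = 0.124) and 0.20 (adjusted p = 0.438).

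Ndufc2 and Ndufb7 had the lowest fold changes of the membrane arm. Ndufc2 was at 63, 53 and 63.8 FPKM in KO and 61.8, 52.4 and 64.1 FPKM in Control, which is complete overlap. Dividing by size factors gave 53.7, 57.4 and 48 in KO and 74.6, 60.2 and 63.4 in Control, so that every KO library lay below every Control library, with a log2 fold change of -0.31 ± 0.13 (SE; adjusted p = 0.219, limma). Ndufb7 was at 74.8, 64.8 and 79.6 FPKM in KO and 80, 62.8 and 75.2 FPKM in Control, again overlapping, and in scaled FPKM it was at 63.8, 70.2 and 59.9 in KO and 96.6, 72.3 and 74.4 in Control. After scaling the log2 fold change was -0.31 ± 0.14 (adjusted p = 0.257). After a correction for transcript GC content the value of Ndufb7 was -0.05, while that of Ndufc2 was -0.35 (adjusted p = 0.0966). The other distal genes after scaling ran from -0.20 (Ndufb2) to 0.20 (Ndufb6), and the other proximal genes from -0.11 to 0.16.

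**Figure D2:**
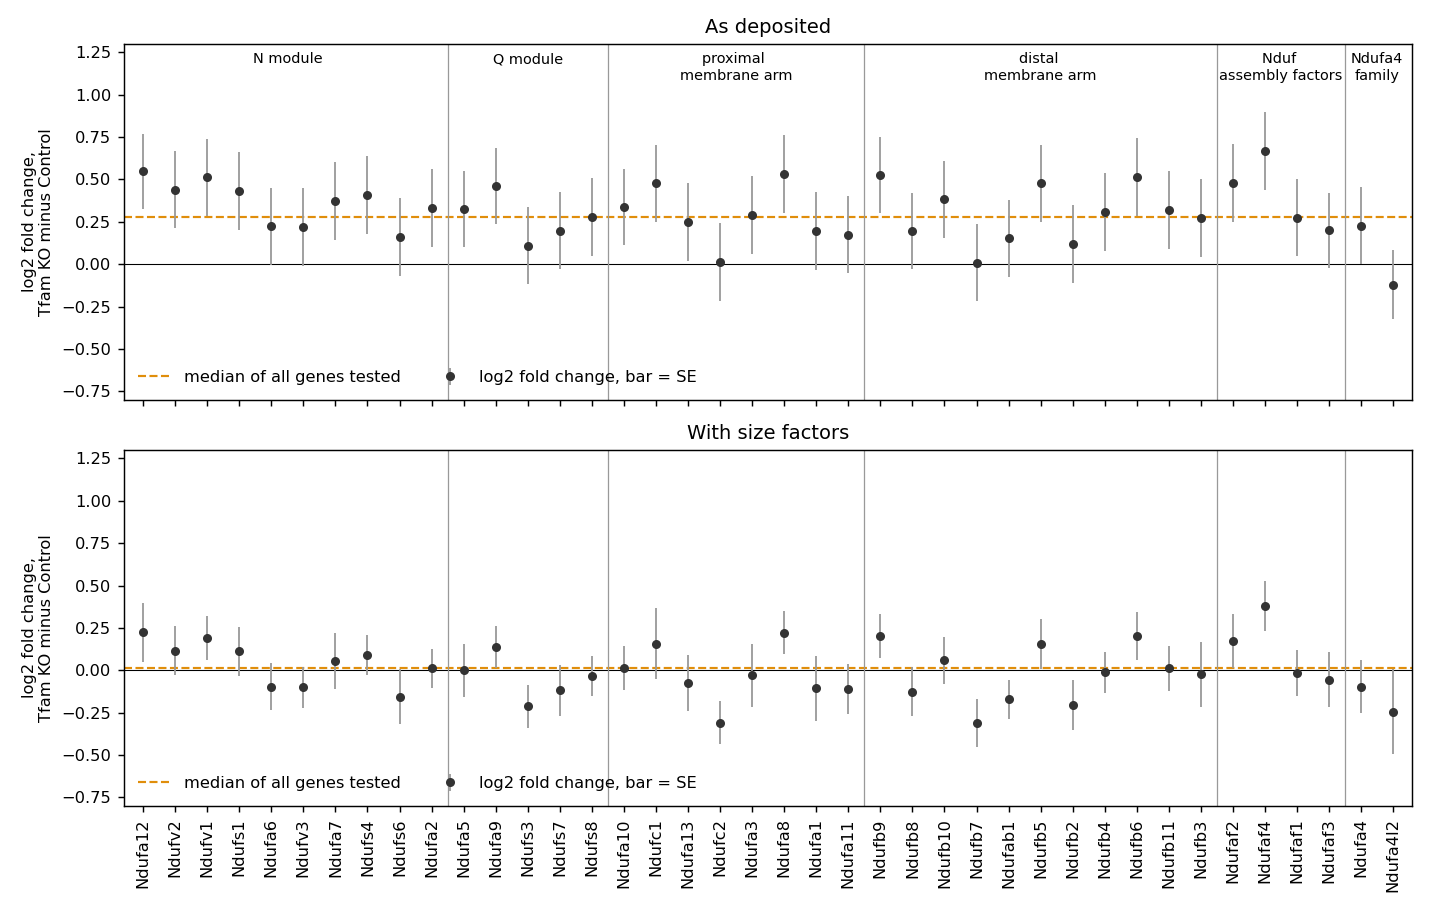
Log2 fold change (KO minus Control) of 40 of the 41 tested Nduf genes with its standard error, on the deposited scale (upper panel) and after scaling (lower panel), with the median of all genes tested as a dashed line. All subunits shown lay above 0 in the upper panel and around 0 in the lower one, and Ndufaf4 was the highest point in both.

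A few members were limited by their gene models. Ndufs5, a proximal subunit, was listed at 0 in all 6 libraries. A pseudogene nearly identical to it, BC002163, was at 3.83, 2.46 and 3.47 FPKM in KO and 1.15, 2.26 and 1.66 FPKM in Control. It was called higher on the deposited scale (log2 fold change 0.67, adjusted p = 0.035, limma), where 6.21% of all genes were. After scaling it was not called (0.44, adjusted p = 0.19). Whether reads of Ndufs5 were counted there was not tested. Ndufa11 carried a model length of 2661 bases in the recovered values, so its FPKM of 6.15 is per that length. Near-identical copies were also found for Ndufa12, Ndufab1, Ndufb3, Ndufb4, Ndufb8, Ndufb11, Ndufc1, Ndufs3 and Ndufs6 among the genes of GENCODE vM21. Values of these genes are uncertain, since the handling of reads that match several copies is not given in the sources used here. Many members also share exonic bases with another gene. This lies on the same strand for Ndufb2, Ndufb8 and Ndufb9, and on the opposite strand for Ndufs1, Ndufs3, Ndufa9 and others.

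Ndufa4 was named as a complex I subunit and is now placed in cytochrome c oxidase, and Ndufa4l2 is its relative, known for induction by low oxygen. Ndufa4 was at 118.9, 76.1 and 111 FPKM in KO and 65.9, 101 and 94 FPKM in Control. The groups overlapped on both scales, and its log2 fold changes were 0.23 and -0.10. Ndufa4l2 was at 1.33, 1.51 and 0.311 FPKM in KO (16, 20 and 5 reads) and 1.04, 0.84 and 1.61 FPKM in Control (14, 10 and 28 reads). It was near the filter of 1 FPKM in both groups, which overlapped. Its exons overlap those of Shmt2 on the opposite strand, and the strand setting of the counting is not given in the sources used here. Shmt2, an enzyme of mitochondrial serine and folate metabolism, rose to 47.9, 30.9 and 38.3 FPKM in KO from 11.4, 9.01 and 12.5 FPKM in Control (log2 fold change 1.73 on the deposited scale and 1.42 after scaling, adjusted p = 0.000475, limma).

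Among the assembly factors 1 gene fell, where 1.16% of all genes were called lower on the deposited scale and 2.5% after scaling. Ndufaf8, a small protein that in human cells stabilises the Q-module factor NDUFAF5, was listed under the older symbol 1810043H04Rik and is therefore outside the 42 members. It was looked up with Ndufaf5, Ndufaf6 and Ndufaf7, which also stood under older symbols. Ndufaf8 was at 7.10, 2.93 and 5.33 FPKM in KO (44, 20 and 44 reads) and 13.1, 9.82 and 13.55 FPKM in Control (90, 60 and 121 reads). Every KO library was below every Control library on both scales, and KO replicate 2 was the lowest. Of all genes, 2.34% were separate in that direction on the deposited scale and 11.6% in scaled FPKM. The means were 5.12 ± 2.09 FPKM in KO and 12.1 ± 2.03 FPKM in Control (SD, n = 3 each). On the log2 scale this was a difference of -1.15 ± 0.23 (SE; adjusted p = 3.4e-05, limma) on the deposited scale and -1.44 ± 0.19 (adjusted p = 0.0019) after scaling, and -1.40 after GC correction (adjusted p = 0.00028). The call was kept without any single library on both scales, with adjusted p from 2.9e-05 to 0.0161. It was lost on the deposited scale when the filter on low values was removed (adjusted p = 0.115). In the main deposited fit the SE came from the variance shared by all genes, not from this gene's own spread. Without the filter the gene's own spread also counted.

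Its partner Ndufaf5, which hydroxylates an arginine of Ndufs7 in human cells, was at 6.94, 4.24 and 6.33 FPKM in KO and 4.39, 4.14 and 5.53 FPKM in Control, with overlapping groups. Scaled, its log2 fold change was -0.02 ± 0.13 (SE), and that of Ndufs7 was -0.12 ± 0.15, so neither the partner nor the substrate passed the test (adjusted p = 0.942 and 0.731, limma). Whether Ndufaf8 and Ndufaf5 differed from each other in their response was not tested. Ndufaf6, an early factor, was at 12.5, 12 and 10.6 FPKM in KO and 6.52, 10.7 and 8.30 FPKM in Control, where 1 KO library lay just under the highest Control library. Ndufaf7, an arginine methyltransferase of mitochondria, was at 7.27, 5.25 and 7.69 FPKM in KO and 5.17, 5.55 and 5.62 FPKM in Control, again overlapping. Their log2 fold changes after scaling were 0.14 and -0.03.

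Ndufaf4, which acts with Ndufaf3 in building the Q module, was the member nearest to a call. It was at 8.74, 8.79 and 13.2 FPKM in KO (398, 441 and 801 reads) and 4.66, 6.79 and 6.62 FPKM in Control (236, 305 and 435 reads). The groups were separate on the deposited scale, with KO higher, and overlapped in scaled FPKM, at 7.45, 9.53 and 9.93 in KO and 5.63, 7.81 and 6.55 in Control, where KO replicate 1 lay under Control replicate 2. The log2 fold change was 0.67 ± 0.23 (SE; adjusted p = 0.0476, limma) on the deposited scale and 0.38 ± 0.15 (adjusted p = 0.194) after scaling. The deposited call held without KO replicate 2 and was lost when any 1 of the other 5 libraries was left out, with adjusted p from 0.0976 to 0.441. Its partner Ndufaf3 was at 3.21, 3.39 and 4.99 FPKM in KO and 3.57, 2.42 and 3.68 FPKM in Control, which overlapped, with log2 fold changes of 0.20 and -0.06. Ndufaf3 shares exonic bases with Impdh2 on the opposite strand.

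Ndufaf1, of the complex that assembles an inner part of the membrane arm, was at 9.01, 7.73 and 9.65 FPKM in KO and 6.73, 7.97 and 6.60 FPKM in Control. Ndufaf2, a relative of Ndufa12 that precedes it in the growing N module, was at 13.4, 14.5 and 23.4 FPKM in KO and 9.92, 12.8 and 12.3 FPKM in Control. Ndufaf2 was separate on the deposited scale, with KO replicate 3 far above the rest, whereas Ndufaf1 overlapped, and both overlapped in scaled FPKM. The log2 fold changes of Ndufaf2 were 0.48 (adjusted p = 0.17, limma) and 0.17 (adjusted p = 0.624). Over Ndufaf1 to Ndufaf4 the median log2 fold change was 0.38 on the deposited scale and 0.08 after scaling.

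**Figure D3:**
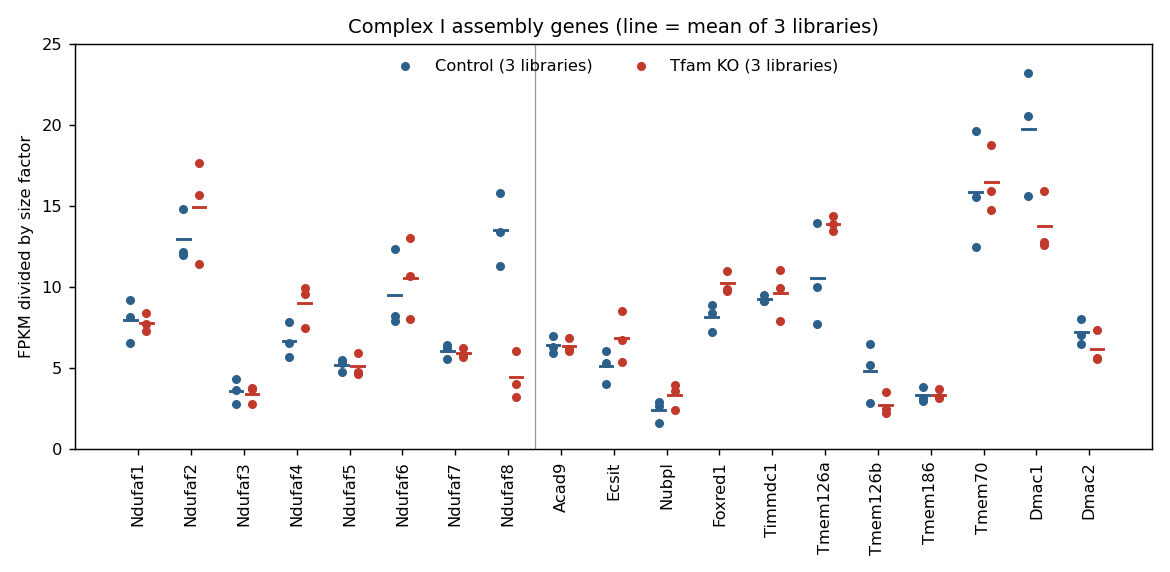
Scaled FPKM of 8 Ndufaf genes (left) and 11 other complex I assembly genes (right) in each library, with a line at the mean of 3 libraries. Ndufaf8 stood apart with all KO libraries between 3.18 and 6.06 and all Control libraries between 11.3 and 15.8, while most other genes overlapped.

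Other assembly genes, without a Nduf symbol, were read from a list of 11 that were all tested. Tmem126a, which takes part in building the distal membrane arm, was called higher on the deposited scale, where 6.21% of all genes were. After scaling 0 were called, against 2.07% of all genes higher and 2.5% lower. Without Tfam KO replicate 2 the deposited count was 4 higher, where 21% of all genes were called higher. Without Control replicate 2 it stayed at 1 (2.63% of all genes), and without any 1 of the other 4 libraries it was 0. After scaling, 1 gene was higher without Control replicate 2 (2% of all genes). Also after scaling, 1 was lower without that library (3.16% of all genes) or without Control replicate 1 (1.32%). Tmem126a was at 16.9, 12.4 and 18.4 FPKM in KO and 8.25, 12.1 and 7.80 FPKM in Control, separate on the deposited scale and overlapping in scaled FPKM, with log2 fold changes of 0.71 (adjusted p = 0.0352, limma) and 0.40 (adjusted p = 0.247). Foxred1, which acts late in assembly, was at 12.9, 9 and 13.1 FPKM in KO and 5.97, 7.70 and 8.49 FPKM in Control. It was the 1 gene of the 11 with every KO library above every Control library on both scales. In scaled FPKM, 12.5% of all genes were separate in that direction. Foxred1 did not pass the test (log2 fold change 0.30 after scaling, adjusted p = 0.212, limma). Of the Ndufaf1 partners, Ecsit was at 0.64 on the deposited scale (adjusted p = 0.0589) and 0.36 after scaling (adjusted p = 0.301). Acad9 was at 0.28 and -0.01, and Tmem126b at -0.35 and -0.60 (adjusted p = 0.187). With GC correction Tmem126b was the 1 gene of the list called, lower in KO (log2 fold change -0.67, adjusted p = 0.0484, limma). Of all genes, 4.14% were called lower there. Nubpl, which supplies iron-sulfur clusters, was at 0.59 and 0.35, and the remaining genes lay between -0.17 (Dmac1) and 0.37 (Tmem70) on the deposited scale and between -0.48 and 0.06 for the same genes after scaling. With GC correction Dmac1 was at -0.52 (adjusted p = 0.0575).

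Transcripts of subunits were far more abundant than those of their assembly factors. The ratio of the median subunit FPKM to the median of Ndufaf1 to Ndufaf4 was 7.10, 5.75 and 5.85 in KO and 8.45, 7.10 and 7.89 in Control. This ratio does not depend on the library's scale. KO replicate 1 and Control replicate 2 were level with each other, while the other KO libraries lay below all Control libraries. The ratio leaves out Ndufaf5 to Ndufaf8, and so Ndufaf8, which fell. The median of Ndufaf1 to Ndufaf4 was 8.26 to 11.4 FPKM in KO and 5.70 to 7.38 FPKM in Control, without overlap on the deposited scale. In scaled FPKM it was 7.57, 8.95 and 8.60 in KO and 6.88, 8.49 and 6.54 in Control, which overlapped. Over Ndufaf1 to Ndufaf8 the median was 6.49 to 8.67 FPKM in KO and 5.85 to 7.38 FPKM in Control, which overlapped. The lower KO ratios were seen with Ndufaf1 to Ndufaf4, and the ratio for the wider set was not computed. The make-up of the subunit pool varied little. The N module took 29.9% to 31.8% of the summed subunit FPKM in KO and 28.2% to 29.8% in Control. These ranges almost touched, with KO replicate 3 at 29.93% and Control replicate 2 at 29.76%. The Q module took 18.9% to 20.5% in KO and 20.2% to 21.2% in Control. Ndufa12 supplied much of the N-module share, as given above, and whether the groups stay separate without it was not tested. These shares were not tested.

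Members varied together with the GC content of their transcripts, which ran from 39.5% (Ndufaf4) to 60.4% (Ndufa13). Across the 41 tested members, the deviation of a gene in a library from its group's mean had a correlation with GC content of 0.41, 0.00 and -0.43 in KO replicates 1 to 3 and of 0.56, -0.69 and 0.18 in Control replicates 1 to 3. For the 10434 tested genes with a GC value, the correlations were 0.59, 0.07 and -0.63 in KO and 0.61, -0.47 and -0.17 in Control. GC-rich members were thus relatively high in KO replicate 1 and Control replicate 1 and relatively low in KO replicate 3 and Control replicate 2, within groups of the same genotype. The fold change after scaling had a correlation with GC content of -0.31 over members and -0.28 over all genes. All these points share their libraries and are given as a description. With GC correction 0 of the 41 members were called, against 4.26% of all genes higher and 4.14% lower, and the part of GC content in the other results was not tested.

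**Figure D4:**
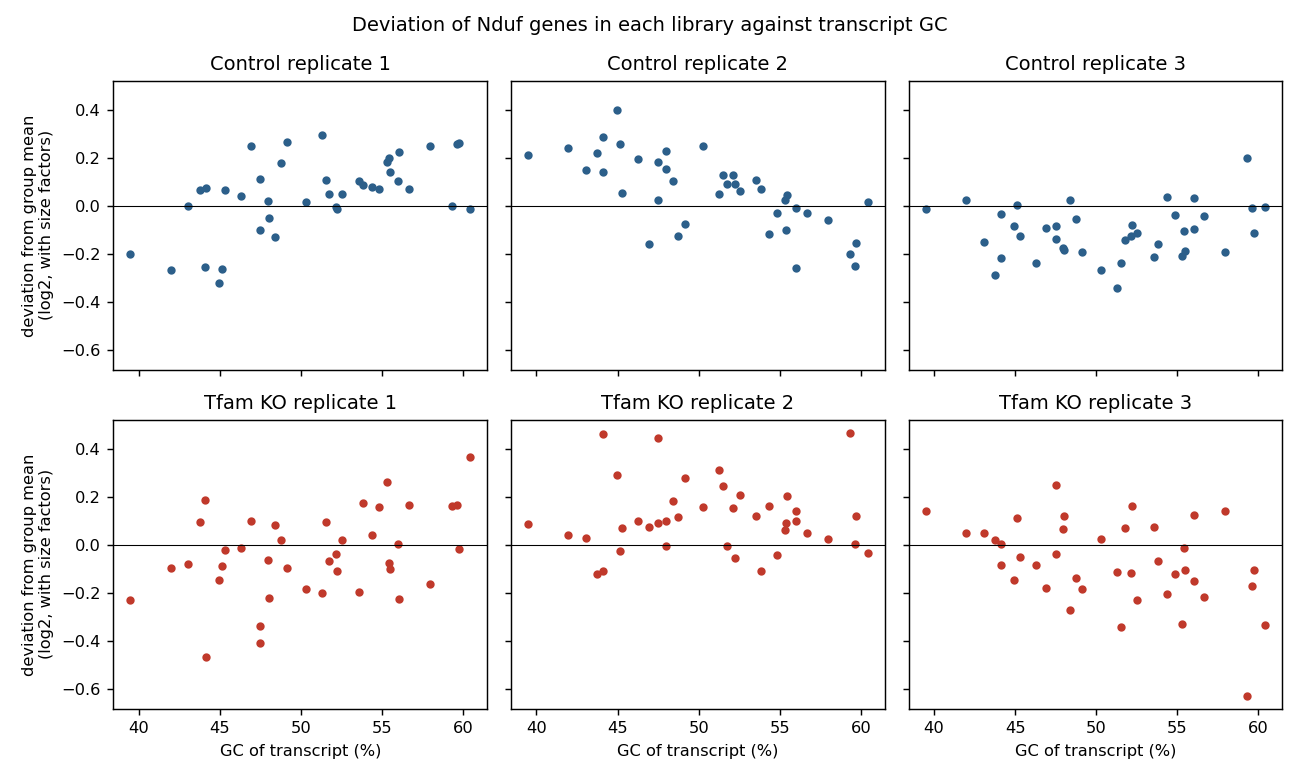
Deviation of 40 of the 41 tested Nduf genes from the group's mean (log2, after scaling) against the GC content of the transcript in percent, 1 panel per library. Points slope upward in Control replicate 1 and downward in Control replicate 2, with correlations over all 41 genes of 0.56 and -0.69.

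The promoters of Ndufaf4 and Ndufaf8 are shown, the 2 genes of Ndufaf1 to Ndufaf8 with the largest differences on both scales. The bases are the 250 before the gene start in RefSeq (GRCm38.p6), chr4:24897833-24898082 on the plus strand for Ndufaf4 and chr11:120098684-120098933 on the plus strand for Ndufaf8, and capitals mark the motif letters found.
Ndufaf4: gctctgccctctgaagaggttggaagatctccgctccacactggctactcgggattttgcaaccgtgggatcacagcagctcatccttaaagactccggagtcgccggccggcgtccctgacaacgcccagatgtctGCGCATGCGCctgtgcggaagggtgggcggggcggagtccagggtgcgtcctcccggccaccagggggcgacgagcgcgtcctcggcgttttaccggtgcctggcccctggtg
Ndufaf8: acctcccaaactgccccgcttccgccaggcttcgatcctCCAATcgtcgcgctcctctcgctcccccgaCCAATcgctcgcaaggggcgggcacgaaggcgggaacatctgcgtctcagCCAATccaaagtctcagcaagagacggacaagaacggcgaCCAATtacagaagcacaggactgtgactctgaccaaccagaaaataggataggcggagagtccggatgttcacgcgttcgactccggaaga
In the Ndufaf4 sequence the capitals are the 10 letters of the NRF1 site, which start 113 bases before the gene start. NRF1 is a transcription factor known for regulating many nuclear genes of the respiratory chain. In the Ndufaf8 sequence the capitals are 4 CCAAT boxes (CCAAT). The Ndufaf8 window also holds a match to the YY1 letters AAGATGGC that ends beyond the bases printed.

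Windows of 250 bases before and 50 after the gene start were found for 37 of the 42 members and searched on both strands for 6 motifs. The NRF1 letters were in 2 of 37 members (Ndufa11 and Ndufaf4), or 5.41%, against 1.07% of 27025 genes with a window. CCAAT was in 13 members, or 35.1%, against 41.1% of all. The ETS letters CCGGAAGT were in 1 (2.7% against 4.31%). The ERR letters TCAAGGTCA and the ATF4 letters TGATGNAA were in 0 members, against 0.466% and 4.51% of all.

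The letters AAGATGGC, bound by the factor YY1, were in 7 of 37 members, or 18.9%, against 3.19% of all genes, and these 7 are shown because they share their place. Each match lay on the strand of the gene, beginning 23 to 39 bases after its start, and the ATG within it was an annotated start codon (GENCODE vM21, GRCm38) in 7 of 7. Over all windows, 284 matches on the gene strand began after the gene start, and 58.8% of these were at an annotated start codon. The 7 sites are given with up to 10 bases on each side and the motif in capitals.
Ndufa3: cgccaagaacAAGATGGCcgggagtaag
Ndufa9: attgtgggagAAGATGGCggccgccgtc
Ndufb8: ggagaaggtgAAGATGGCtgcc
Ndufc1: cctgcggaacAAGATGGCgccgtccgta
Ndufs4: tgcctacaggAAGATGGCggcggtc
Ndufs6: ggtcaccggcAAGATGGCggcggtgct
Ndufs7: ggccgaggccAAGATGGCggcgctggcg
The 7 genes belong to the N module (Ndufs4, Ndufs6), the Q module (Ndufs7, Ndufa9) and the proximal and distal membrane arm (Ndufa3, Ndufc1, Ndufb8). Their log2 fold changes after scaling ran from -0.16 (Ndufs6) to 0.16 (Ndufc1), within the range of the other subunits.

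The nuclear subunits of complexes II to IV, from a list of 32, gave 3 calls higher among 30 tested on the deposited scale, where 6.21% of all genes were called higher, and 1 after scaling, against 2.07%. Cox6a2, the heart and muscle form of a cytochrome c oxidase subunit, rose to 726, 604 and 529 FPKM in KO from 211, 149 and 188 FPKM in Control (log2 fold change 1.76 on the deposited scale and 1.43 ± 0.21 (SE) after scaling, adjusted p = 0.00382, limma). The highest values among complex I subunits were the 0.55 and 0.22 of Ndufa12. Sdhb of complex II and Uqcr10 of complex III were called on the deposited scale (log2 fold changes 0.81 and 0.68) and not after scaling. Sdhb also passed by limma-voom (0.50, adjusted p = 0.0406) and with GC correction (0.52, adjusted p = 0.0346). Cox5b, a subunit of complex IV, was not called on the deposited scale or after scaling, and was called lower by limma-voom (-0.79, adjusted p = 0.0221) and with GC correction (-0.83, adjusted p = 0.0485). Of 16 ATP synthase genes, Atp5g1 was called higher on the deposited scale and not after scaling (0.80 and 0.48), and Atp5g3 was called lower after scaling and not on the deposited scale (-0.90, adjusted p = 0.00496), both genes coding for the c-ring subunit. Atp5g2, which codes for the same subunit, was called higher with GC correction (0.48, adjusted p = 0.0257) and was at 0.01 after scaling. The list medians after scaling were -0.11 for complexes II to IV and -0.09 for ATP synthase, beside -0.01 for the complex I subunits.

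Cell type markers moved beside these values. Summed over 10 heart muscle markers, scaled FPKM was 11498 to 19282 in KO and 17309 to 21092 in Control. Their median log2 fold change was -0.15 on the deposited scale and -0.48 after scaling. After scaling 3 (Myl3, Ttn and Nkx2-5) were called lower, against 2.5% of all genes. Only Myl3 was also called lower on the deposited scale (adjusted p = 0.00585, limma). With GC correction Myl3 and Ttn were called lower and Nkx2-5 was not (log2 fold change -0.23, adjusted p = 0.345). The 6 mesenchymal markers had medians of 0.58 and 0.25, with 2 called higher on the deposited scale (6.21% of all genes). The 6 endothelial, 5 epicardial and 4 macrophage markers had medians after scaling of -0.01, -0.02 and 0.13 and 0 calls on that scale. On the deposited scale the endothelial marker Emcn (log2 fold change 0.68, adjusted p = 0.0475, limma) and the macrophage marker Cx3cr1 (0.76, adjusted p = 0.0102) were called higher. Red blood cell markers summed to 3332 to 10166 in KO and 6209 to 12711 in Control, with 5 of 7 tested and Hba-a1 at 0. The part of these differences in the complex I values was not tested. In whole hearts, fewer cells of a type and less RNA per cell cannot be told apart.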

How the data were processed

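RNA of frozen hearts was column-purified and its polyadenylated part taken for sequencing, per the labels' protocols. The authors deposited 1 table per library of log2(FPKM + 1), the base being worked out from the values. Tools named in the submitters' processing notes, without roles, were HTSeq 0.5.3, TopHat2 2.0.7 and CASAVA 1.8.2, and the build was mm9. The annotation and strand setting are not given in the sources used here. Library totals and reads were recovered from the steps of the FPKM values, and 17874 of 17876 genes above 0 gave whole reads in every library (tolerance 0.001).

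The 10807 genes averaging 1 FPKM or more were tested with limma 3.58.1 (R 4.3.3), with a trend, group as the only term, two-sided, and Benjamini-Hochberg adjustment over all genes (threshold 0.05). The fit was made on the deposited scale and on FPKM divided by median-of-ratios size factors, each with a pseudocount of 1, so fold changes of low genes are understated. In the main fit on the deposited scale, limma's prior degrees of freedom were infinite. Each SE and p there thus came from the variance trend over all genes, not from the gene's own spread. They were 6.2 after scaling, and 4.78 on the deposited scale with no filter. The method was tested on simulated data, which held no shift in scale between the groups and no link to GC content. Alternatives were a pseudocount of 0.1, no filter, a filter of 5 FPKM, each library left out, the replicate number as a block, no trend, limma-voom on recovered reads, and a lowess GC correction chosen after seeing the data.

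Values per library are given for members past the threshold, the 3 highest and lowest subunits by fold change, core subunits, Ndufaf genes, the Ndufa4 family and the 3 most abundant members. Members and lists were chosen with earlier results of these data known. Copies were sought with BLAST 2.17.0 (95% identity) in GENCODE vM21, a later build than mm9. Ndufb1 and Coa1 were not listed and were not analysed here, and 1 tested subunit enters the counts and medians but its values are not reported here.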

Additional observations from a re-analysis of the deposited data

How the results depend on the processing

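Fold changes and medians in this section are log2 values less the median of all genes tested under the same setting, so that the scale of the libraries drops out. The fall of Ndufaf8 kept its direction under every setting run and lost its call under 1 of them, the deposited scale without a filter on low values, where Ndufaf5 to Ndufaf8 gave 0 lower genes in place of 1. The deposited call of Ndufaf4 did not hold with size factors (0 Nduf members higher), with no filter (0), without the variance trend (0), by limma-voom (0) or with size factors and GC correction (0). Of the other assembly genes, 0 were higher with size factors, no filter, limma-voom or GC correction, and 1 (Tmem126b) was lower with GC correction. On the deposited scale both counts stood at 1 higher, against 0 with size factors. The causes were not tested.

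The deviations of same-numbered KO and Control libraries had correlations of 0.365, 0.05 and 0.175 on the deposited scale. The first of these was the highest of all pairs. KO replicate 3 was closest to Control replicate 2 on both scales (0.254 deposited and 0.252 with size factors). Deviations in most libraries also varied with GC content, so these correlations cannot show whether the replicate numbers paired the libraries. With the replicate block on the deposited scale, 9 Nduf members and 4 other assembly genes were higher, where the share of all genes was 19.3%. With the block and size factors 0 of either were called, with Ndufa5 at -0.0125 and Ndufs8 at -0.0466.

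Leaving out 1 library in turn gave 0 to 6 Nduf members and 0 to 4 other assembly genes higher on the deposited scale. The highest counts were those without Tfam KO replicate 2, where 21% of all genes were called higher. With size factors, leaving out 1 library gave 0 to 1 other assembly genes in each direction. Over both scales these settings gave medians of -0.0871 to 0.0707 for subunits, -0.032 to 0.148 for the N module and -0.162 to 0.037 for the Q module. With no filter, which lowers the median of all genes, the medians were 0.168 for subunits (0.0308 in the report's setting), 0.250 for the N module (0.113) and 0.0985 for the Q module (-0.0386).

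Some members changed sign, among them Ndufa4l2, Ndufaf6, Ndufs1 and Ndufv2, whose values did not lie near 0. With no filter Ndufaf1 was at 0.134, Ndufaf3 at 0.0595, Ndufaf5 at 0.111, Ndufaf7 at 0.109, Ndufa4 at 0.0869 and Ndufs7 at 0.0585. With size factors and GC correction Ndufa5 was at -0.0347, Ndufa10 at -0.0137, Ndufaf3 at 0.0073, Ndufs7 at 0.133 and Ndufs8 at -0.0112. Ndufa5 was also at -0.0125 with size factors, -0.0072 with a pseudocount of 0.1, -0.0004 with the filter of 5 FPKM and -0.0068 by limma-voom, and under these settings Ndufs8 was at -0.0466, -0.0443, -0.0463 and -0.0535. With 1 library left out on either scale, the ranges were -0.137 to 0.0352 for Ndufaf5, -0.0177 to 0.339 for Ndufaf6, -0.0754 to 0.115 for Ndufa10, -0.227 to 0.0824 for Ndufa4 and -0.692 to 0.0619 for Ndufa4l2. They were -0.147 to 0.162 for Ndufa5, -0.150 to 0.0875 for Ndufaf1, -0.207 to 0.0542 for Ndufaf3 and -0.0239 to 0.274 for Ndufs1. They were -0.262 to 0.043 for Ndufs7, -0.131 to 0.0499 for Ndufs8 and -0.0201 to 0.272 for Ndufv2. Depth limited Ndufa4l2, with 5 to 28 reads a library, and Ndufaf8, with 20 to 121.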
